A study of Rattus norvegicus with 100 samples.

Results

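Amino acid transporters are the membrane proteins that carry amino acids, and related small molecules such as taurine and creatine, into and out of the cell and its compartments. The genes described here were chosen by symbol: every gene whose name begins with Slc1a, Slc3a, Slc6a, Slc7a, Slc36a, Slc38a or Slc43a. This rule found 51 of the 13439 genes with a probe set of their own on the array. Of these, 24 exceeded a log2 intensity of 5 in at least 3 of the 100 arrays and were tested together with the other genes past that filter, 8843 in all. The other 27 stayed below it.

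The RNA came from primary rat hepatocytes, freshly isolated liver cells kept in culture, of 4 rats labelled Rs627, Rs628, Rs631 and Rs632. Cultures received GW7647, a synthetic agonist of the nuclear receptor PPARα, at 0.001, 0.01, 0.1, 1 or 10 µM, or 0 µM, and RNA was collected after 2, 6, 12, 24 or 72 h. This gives 30 groups of 2 to 4 arrays. All cultures, those at 0 µM included, were grown on rat collagen IV with Geltrex in William E medium with a maintenance supplement, and strain, sex and age are not given in the sources used here. The 3 to 4 arrays at each time without the agonist serve as the reference for concentration at that time. A rat's cultures shared their liver, so arrays of 1 rat resembled each other. At 12 h and 0 µM, the array labelled Rs627 resembled the arrays of Rs628 and the reverse, and results that use this pair were also computed without it. The only 0 µM array then left at 12 h is that of Rs631.

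In the liver these carriers supply amino acids for protein and glucose synthesis and for the urea cycle. Several families divide the work. Members of the Slc38 family move glutamine, alanine and other small neutral amino acids together with sodium. The Slc7 family holds carriers of cationic amino acids and the light chains of carriers that must pair with a heavy chain of the Slc3 family to reach the cell surface. Members of the Slc6 family couple uptake to sodium and chloride, Slc1 proteins carry glutamate or small neutral amino acids, Slc36 proteins use protons, and Slc43 proteins let large neutral amino acids pass without sodium. PPARα is best known for switching on fatty acid oxidation in the fasted liver.

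With GW7647 the transporter genes split. Slc6a13, a carrier of GABA, betaine and taurine that is found in the liver, was higher by 2.08 on the log2 scale at 72 h with 1 µM (4.24-fold). Slc3a2, the heavy chain known as 4F2hc, was higher by 0.56 at that time. The taurine carrier Slc6a6, the creatine carrier Slc6a8, the glutamine carrier Slc38a3 and 5 further genes were lower. Of all tested genes, 11.3% were higher and 15.5% lower at 72 h with 1 µM. Culture time alone, up to 72 h at 0 µM, moved none of the 24 genes past an adjusted p of 0.05 by limma. Of all tested genes only 1.41% to 3.4% passed at the later times. With rat as a term Slc7a7 at 6 h and Slc38a2 at 72 h passed, both lower, where 4.4% and 13% of all genes did.

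Upstream sequences of members that fell with the agonist show how different their start regions are. RefSeq promoter entries (build GRCr8) were matched by gene identifier for 39 of the 51 members and 21 of the 24 past the filter. The 250 bases before the start are printed for the 4 genes that were lower with 1 µM over all times and whose window ends at the annotated start of the gene. Of these calls, that of Slc7a1 (-0.40 ± 0.15, adjusted p 0.0316 by limma) was lost in 6 of 15 alternative settings, without Rs627 (0.0654), Rs631 (0.165), Rs632 (0.501), the doubtful pair of 12 h arrays (0.15), the arrays of low signal (0.107) or those at repeated plate positions (0.146). Those of Slc38a4 (0.0677) and Slc38a6 (0.143) were lost without Rs632 only. Capitals mark the one match to the core TGATGNAA of the C/EBP-ATF response element, which transcription factors of the amino acid response bind.
Slc38a4 (chr7:130082170-130082419, minus strand): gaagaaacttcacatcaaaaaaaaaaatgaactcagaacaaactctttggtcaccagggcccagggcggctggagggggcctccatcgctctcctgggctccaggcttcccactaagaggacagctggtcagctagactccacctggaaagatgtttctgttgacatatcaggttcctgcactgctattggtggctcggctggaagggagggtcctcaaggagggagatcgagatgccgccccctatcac
Slc38a6 (chr6:97723276-97723525, plus strand): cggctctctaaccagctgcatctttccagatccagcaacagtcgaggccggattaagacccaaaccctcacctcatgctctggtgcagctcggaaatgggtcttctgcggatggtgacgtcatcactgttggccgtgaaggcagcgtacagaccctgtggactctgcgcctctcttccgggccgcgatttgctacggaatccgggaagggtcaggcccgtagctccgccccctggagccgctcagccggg
Slc6a8 (chrX:156535767-156536016, plus strand): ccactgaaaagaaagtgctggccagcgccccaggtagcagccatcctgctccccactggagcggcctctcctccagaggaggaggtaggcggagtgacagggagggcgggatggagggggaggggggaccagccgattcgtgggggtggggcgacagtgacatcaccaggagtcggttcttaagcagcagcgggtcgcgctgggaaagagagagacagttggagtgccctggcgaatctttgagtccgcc
Slc7a1 (chr12:11664238-11664487, plus strand): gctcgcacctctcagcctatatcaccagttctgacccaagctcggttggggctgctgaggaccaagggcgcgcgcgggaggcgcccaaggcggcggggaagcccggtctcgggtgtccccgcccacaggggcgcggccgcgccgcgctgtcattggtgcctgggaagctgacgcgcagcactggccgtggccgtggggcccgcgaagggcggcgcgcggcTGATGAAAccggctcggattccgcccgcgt

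The window of Slc7a1 was 73.2% G and C with 33 CG dinucleotides, that of Slc6a8 was 64.4% with 13, that of Slc38a6 was 61.6% with 18, and that of Slc38a4 was 54.4% with 5. Over the 21 windows of members past the filter the median was 58.4% G and C, against 51.2% over all 33469 promoters in the table. The TGATGNAA core, searched on both strands, was found in 2 of the 21 windows. In Slc7a1 it stood at position -30 from the start as TGATGAAA, and in Slc1a4 at position -235 as TTGCATCA, its form on the other strand. The Slc1a4 window does not end at the annotated start of that gene, so its position counts from the start that the promoter table uses. Of all promoters, 3.4% held it. The PPAR response element, a direct repeat of AGGNCA with 1 base of any kind between the copies, also searched on both strands, was found in 0 of the 21 windows and in 0.368% of all promoters.

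The families differed in how many members gave signal. In the Slc38 family 6 of 8 passed the filter (Slc38a2, Slc38a3, Slc38a4, Slc38a6, Slc38a7 and Slc38a10), and 4 of them exceeded 5 in all 100 arrays. In the Slc6 family 6 of 16 passed (Slc6a6, Slc6a8, Slc6a9, Slc6a13, Slc6a17 and Slc6a20b), and in the Slc7 family 6 of 14 (Slc7a1, Slc7a5, Slc7a6, Slc7a7, Slc7a11 and Slc7a6os). The last of these is no transporter: it takes its name from its place beside Slc7a6 and enters only through the symbol rule. Both Slc3 and both Slc43 genes passed, 2 of 6 Slc1 genes did (Slc1a3 and Slc1a4), and none of the 3 Slc36 genes did. Levels of different probe sets cannot be set against each other, so the array gives no ranking of the carriers.

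The members below the filter were Slc1a1, Slc1a2, Slc1a5, Slc1a6, Slc6a2, Slc6a3, Slc6a4, Slc6a5, Slc6a7, Slc6a11, Slc6a14, Slc6a15, Slc6a18, Slc6a20a, Slc7a2, Slc7a3, Slc7a4, Slc7a8, Slc7a9, Slc7a10, Slc7a13, Slc7a14, Slc36a1, Slc36a2, Slc36a3, Slc38a1 and Slc38a5. Their highest single array was 5.04, for Slc7a13. Many of them are known from brain, kidney or gut, such as the dopamine carrier Slc6a3 and the serotonin carrier Slc6a4. Slc7a2, a cationic amino acid carrier known from liver, did not exceed 3.96. Just inside the filter lay Slc6a20b, which exceeded 5 in 3 arrays, and just outside it Slc7a13.

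The cells carried the marks of hepatocytes. Of 14 hepatocyte markers, 11 exceeded 5 in all arrays. Of 9 macrophage markers 7 never exceeded 5, of 6 endothelial markers none did, of 9 stellate cell markers 3 never did and of 6 bile duct markers 2 never did. The macrophage marker Lyz2 and the bile duct marker Epcam exceeded 5 in all 100 arrays, and the remaining markers of these lists in some. Among them the stellate cell markers Col3a1, Acta2 and Col1a2 did so in 99, 97 and 83 arrays, and the bile duct marker Krt19 in 36. The array's 75th percentile ran from 6.42 to 7.27, and 5 arrays lay under 6.6. Of these 5, 2 were 1 µM arrays at 24 h, from Rs631 and Rs632.

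Without the agonist no transporter gene passed the test at any later time. At 6, 12, 24 and 72 h against 2 h, 0 of 24 members passed limma's test at an adjusted p of 0.05, while 1.5%, 1.79%, 1.41% and 3.4% of all tested genes did. Of all tested genes, 0.859%, 0.249%, 0.204% and 0.226% were higher at these times and 0.645%, 1.54%, 1.21% and 3.18% were lower. At an unadjusted p under 0.05 the counts were 1, 0, 1 and 3 members. The largest differences in either direction at 72 h were -0.48 and 0.34 on the log2 scale, and the 95% intervals of the 24 members reached from -1.26 to 0.931. A change within that range could therefore go unseen for the least precise genes.

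The 3 members with an unadjusted p under 0.05 at 72 h all belong to the Slc38 family. Slc38a3, which carries glutamine, measured 8.97, 8.76, 9.05 and 8.99 at 72 h, against 9.34, 9.40 and 9.20 at 2 h. The 72 h arrays were all lower, by 0.37 ± 0.15 on average (SE; adjusted p 0.17 by limma). Slc38a10, a little-studied relative, measured 9.15, 9.23, 9.33 and 9.35 at 72 h, against 9.43, 9.58 and 9.47 at 2 h. Here too the groups did not overlap, with a difference of -0.23 ± 0.096 (adjusted p 0.176 by limma). Slc38a2, the main carrier of the amino-acid-regulated system A, measured 9.83, 10.06, 9.75 and 10.13 at 72 h, against 9.99, 10.23 and 10.58 at 2 h. Its groups overlapped, but in each of the 3 rats present at both times the 72 h value was lower, and with rat as a term in the model the difference of -0.37 passed (adjusted p 0.0106 by limma; -0.32 and 0.174 without that term).

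Groups without overlap were common at 72 h against 2 h: 25.9% of all tested genes showed it, and so did 5 of the 24 members. These 5 were Slc38a3 and Slc38a10 above, and Slc6a17, Slc6a20b and Slc7a6os, all lower at 72 h and none past the adjusted threshold. Slc6a20b lay under the floor of 5 in every 0 µM array. The median difference at 72 h was -0.171 over all 8843 genes and -0.153 over the members. With arrays centred on their median, 0.181% of all genes were called lower at 72 h, against 3.18% as reported. At 6 h Slc7a7, the light chain known for exporting cationic amino acids, averaged 3.69 ± 0.18 (SD, n = 4), against 4.36 ± 0.18 at 2 h (SD, n = 3). The groups did not overlap. The difference of -0.67 did not pass (adjusted p 0.24 by limma) and was -0.78 with rat as a term (adjusted p 0.00296), but all 7 arrays lay under the floor of 5, so no fold is given.

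**Figure D1:**
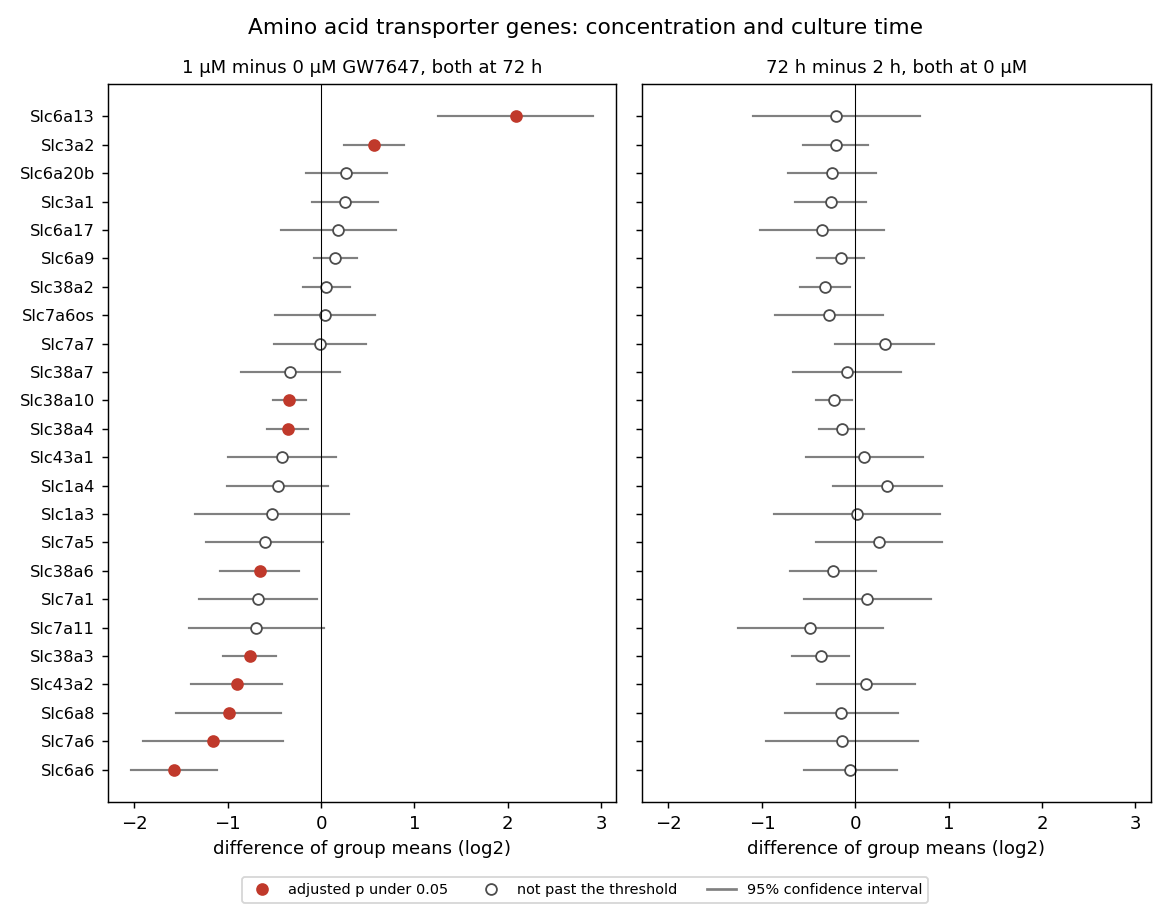
Difference of group means on the log2 scale for the 24 members, with 95% confidence intervals, for 1 µM minus 0 µM at 72 h (left) and for 72 h minus 2 h at 0 µM (right), with filled points where limma's adjusted p was under 0.05. On the left 2 genes lie to the right of 0 and 8 to the left with filled points, and on the right no point is filled.

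Averaged over the 5 times, more members passed at the higher concentrations. At 0.001 µM 0 of 24 members passed, with 0 genes of all tested, and at an unadjusted p under 0.05 the member count was also 0. At 0.01 µM 0 members passed (1 at an unadjusted p under 0.05), against 0.69% of all genes, 0.656% higher and 0.0339% lower. At 0.1 µM 1 was higher and 3 were lower, against 14.3% of all genes, 6.34% higher and 7.94% lower. At 1 µM 2 were higher and 10 lower, against 35.4% of all genes, 11.7% higher and 23.6% lower. At 10 µM 1 was higher and 11 lower, against 39.4% of all genes, 11.7% higher and 27.7% lower. Without Rs632 the counts were 1 higher and 3 lower at 1 µM, against 9.16% and 12% of all genes, and 1 higher and 5 lower at 10 µM, against 7.55% and 16.9%. Without Rs627 the 10 µM counts were 1 higher and 5 lower, against 10% and 16.8%. The 2 higher members at 1 µM were Slc6a13 and Slc6a20b. Of these, Slc6a20b passed the filter only through 3 treated arrays, so its call is a description. Without the pair of 12 h arrays with doubtful labels 9 members were called at 1 µM and 9 at 10 µM, against 32.3% and 35.8% of all genes.

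With rat as a term the counts were 1, 8, 17 and 15 at 0.01, 0.1, 1 and 10 µM, where that model called 1.88%, 28.4%, 50% and 53.8% of all genes. Those added were Slc38a4, Slc38a6, Slc7a5 and Slc7a6 at 0.1 µM, all lower, and Slc1a3, Slc1a4, Slc7a5 and Slc7a6 (lower) and Slc3a2 (higher) at 1 µM. At 10 µM they were Slc1a3 (lower), Slc3a2 and Slc6a20b (higher). The gene added at 0.01 µM was Slc6a13 (0.60 higher, adjusted p 0.00152 by limma). The median over the 24 members was -0.229 at 1 µM, where that over all 8843 genes was -0.068. The 10 members lower at 1 µM were also among the 11 lower at 10 µM, a comparison that shares its 0 µM arrays, and the other was Slc7a6. The 3 genes lower at 0.1 µM were Slc6a8, Slc38a3 and Slc43a2, and all 3 were also lower at 1 and 10 µM. Each of these calls at 0.1 µM was lost when 1 rat or another was left out. Slc6a8 (-0.45) did not pass without Rs627 (adjusted p 0.112 by limma) or Rs631 (0.407), Slc38a3 (-0.24) without Rs631 (0.166) or Rs632 (0.0785), and Slc43a2 (-0.52) without Rs627 (0.061). At 1 µM, 7 of the 10 lower calls were lost without Rs632, and those of Slc6a6, Slc6a8 and Slc38a3 were kept in all 15 alternative settings.

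**Figure D2:**
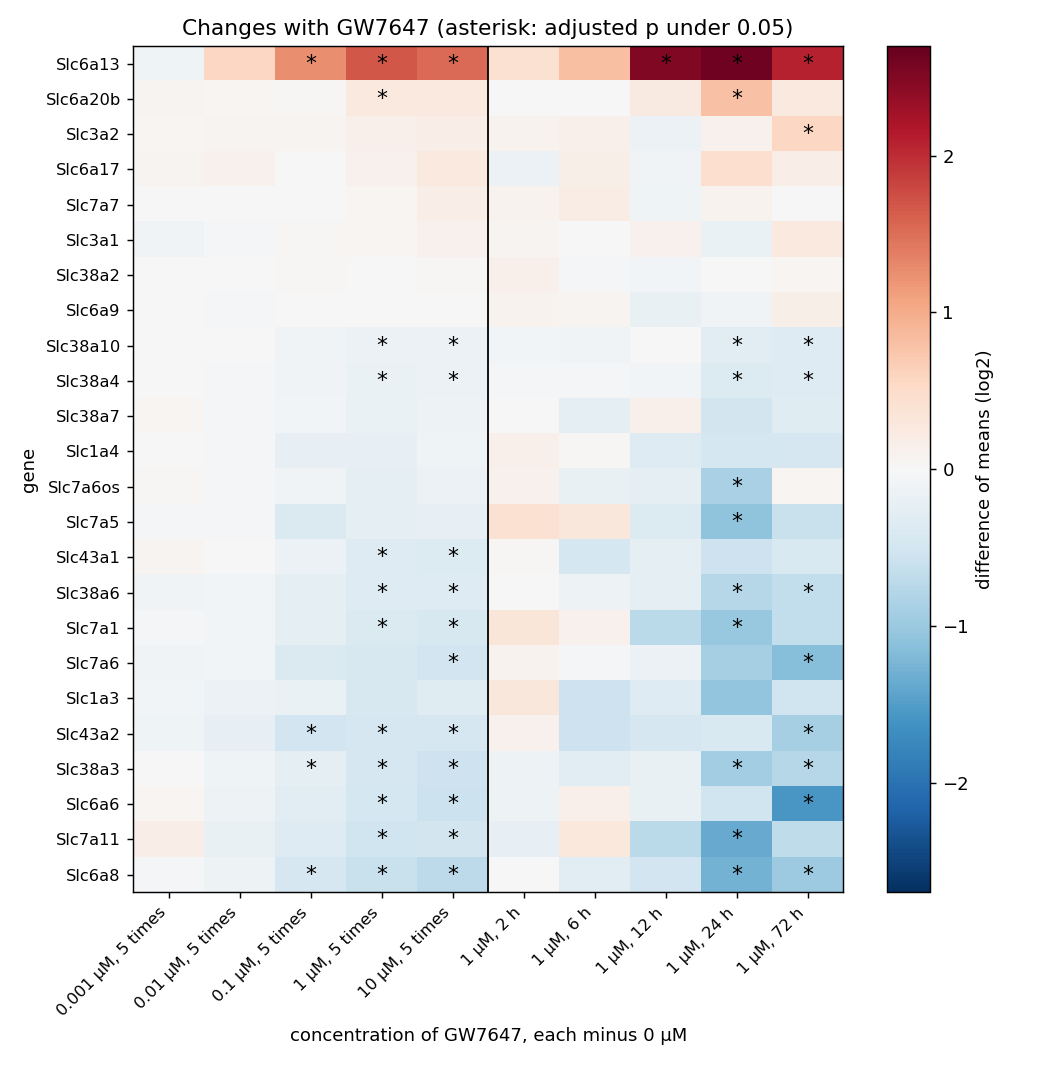
Difference of means from 0 µM on the log2 scale for the 24 members (rows), for each concentration averaged over the 5 times (left of the line) and for 1 µM at each time (right), with red for higher, blue for lower and an asterisk where limma's adjusted p was under 0.05. Slc6a13 in the top row is red in all columns but the first, and asterisks in blue cells gather at 1 and 10 µM and at 24 and 72 h.

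At 1 µM nearly all calls were at the late times. At 2 h 0 of 24 members passed (0.373% of all genes, 0.351% higher and 0.0226% lower; 0 members at an unadjusted p under 0.05), and at 6 h 0 passed (2.04% of all genes, 1.73% higher and 0.305% lower; 1 member at an unadjusted p under 0.05). At 12 h 1 gene, Slc6a13, was higher (5.41% of all genes, 3.96% higher and 1.45% lower). At 24 h 2 members were higher and 9 lower (29.6% of all genes, 7.06% higher and 22.6% lower). Of the 2 higher members, Slc6a20b could enter the test only through treated arrays. At 72 h 2 were higher and 8 lower (26.8% of all genes, 11.3% higher and 15.5% lower). The 5 genes lower at both 24 and 72 h were Slc38a3, Slc38a4, Slc38a6, Slc38a10 and Slc6a8, and Slc6a13 was higher at both.

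The members' median was -0.486 at 24 h and -0.389 at 72 h, against -0.227 and -0.061 over all genes. At 72 h the groups did not overlap for 12 of 24 members, 2 with all 1 µM arrays higher and 10 with all lower, against 28.8% of all tested genes. At 24 h this held for 9 members, 1 higher and 8 lower, against 29.3% of all tested genes. The 24 h counts lean on 2 arrays of low signal. Leaving out every array whose 75th percentile was under 6.6 left 4 members called at 24 h (14.6% of all genes), leaving out Rs631 left 6 (16.8%) and leaving out Rs632 left 3 (9.8%). These shares of members lie near those of all genes in 2 of the 3 settings, and without Rs632 1 member was lower, against 5.59% of all genes. At 72 h the same 3 settings called 10, 10 and 7 members, against 32.1%, 24.7% and 18.2% of all genes. With rat as a term 15 members were called at 24 h (49.8% of all genes), the added ones being Slc1a3, Slc1a4, Slc43a2 and Slc7a6, all lower. At 6 h that term added Slc6a13 (higher) and Slc43a2 (-0.57, adjusted p 0.0389 by limma), against 4.7% of all genes.

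In the Slc6 family Slc6a13 had the largest difference at 72 h and the only one called higher. At 72 h it measured 8.70, 8.78, 7.68 and 8.21 at 1 µM, against 6.44, 5.99, 6.20 and 6.40 at 0 µM. Every 1 µM array exceeded every 0 µM array, and the difference was 2.08 ± 0.42 (SE; 4.24-fold, adjusted p 5.34e-05 by limma), higher in 4 of 4 rats. At 24 h it measured 9.24, 9.11, 8.53 and 9.81 at 1 µM, against 6.58, 5.90 and 7.18 at 0 µM, a difference of 2.62 ± 0.45 (6.14-fold, adjusted p 5.76e-06 by limma). At 12 h the difference was 2.50 ± 0.45 (5.65-fold, adjusted p 3.22e-05 by limma), again without overlap. Rs632, whose Slc6a13 values lay at 0.404 from its groups' means on average, had an array at 1 µM and none at 0 µM at 12 h. Without the pair of 0 µM arrays with doubtful labels the 12 h difference was 3.05, with the array of Rs631 as the only reference left. Rs631 had low Slc6a13 values, at -0.586 from its groups' means on average, so the larger difference adds no support.

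Earlier the Slc6a13 arrays overlapped. At 6 h they measured 7.69, 7.43, 6.65 and 7.49 at 1 µM, against 6.89, 6.96, 5.52 and 6.62 at 0 µM, higher in each of the 4 rats by 0.82 ± 0.42 on average. This passed only with rat as a term (adjusted p 0.0435 by limma; 0.636 without it). Over concentrations at 72 h the means were 6.26 ± 0.21, 6.09 ± 0.56, 6.87 ± 0.65, 7.59 ± 1.05, 8.34 ± 0.51 and 8.32 ± 0.22 at 0, 0.001, 0.01, 0.1, 1 and 10 µM (SD, n = 4, 4, 4, 3, 4 and 3). Neighbouring concentrations were not tested against each other, and the means at 1 and 10 µM differ by less than their SD. Without the agonist Slc6a13 stayed between 5.52 and 7.18 over all times, and the low values of 5.52 at 2 and 6 h were both from Rs631, whose arrays lay at -0.586 from their groups' means on average.

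Slc6a6, the taurine carrier of most tissues, moved the other way at 72 h. It measured 3.41, 3.61, 4.01 and 3.86 at 1 µM, against 5.37, 5.20, 5.57 and 5.07 at 0 µM. All 1 µM arrays lay under the floor of 5 and all 0 µM arrays above it. The difference was -1.58 ± 0.23 (at least 1.23-fold lower, adjusted p 7.37e-08 by limma), lower in 4 of 4 rats. At 10 µM the 3 arrays measured 3.44, 3.47 and 3.76, -1.74 from 0 µM (adjusted p 3.24e-08 by limma).

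The Slc6a6 difference was not the same at all times. At 2 h it measured 5.24, 5.15 and 5.29 at 1 µM, against 5.41, 5.22 and 5.43 at 0 µM, and the groups overlapped. The change at 72 h minus that at 2 h was -1.45 ± 0.35 (adjusted p 0.00326 by limma), the only one of the 24 members past the threshold in this comparison, where 8.66% of all genes passed, 4.4% higher and 4.26% lower. Without Rs627 it was -1.35 and did not pass (adjusted p 0.0616), and with rat as a term 7 members passed: Slc6a6, Slc6a13, Slc3a2, Slc38a3, Slc38a4, Slc43a2 and Slc7a6, against 17.9% of all genes, 7.75% higher and 10.2% lower. At 72 h the means fell stepwise with concentration, 5.30, 5.08, 4.76, 4.41, 3.73 and 3.56 at 0, 0.001, 0.01, 0.1, 1 and 10 µM, and from 0.01 µM on they lie under the floor.

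Slc6a8, which brings creatine into cells, measured 5.31, 5.42, 4.57 and 5.40 at 1 µM at 72 h, against 6.18, 6.06, 6.06 and 6.35 at 0 µM. The groups did not overlap, and the 4.57 of Rs631 was the lowest. The difference was -0.99 ± 0.28 (at least 1.84-fold lower, adjusted p 0.00475 by limma). At 24 h it measured 5.59, 5.50, 4.27 and 4.43 at 1 µM, against 5.77, 6.13 and 6.76 at 0 µM. The last 2 of the 1 µM arrays are those of low signal, and the difference of -1.27 ± 0.30 (adjusted p 0.000979 by limma) became -0.67 without them (adjusted p 0.113) and -0.83 without Rs632 (adjusted p 0.0904). A second probe set of Slc6a8, under the floor in all arrays, also fell at 72 h, by 0.64.

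Of the other Slc6 genes none was called at 72 h. Slc6a9, a glycine carrier, averaged 7.91 at 1 µM at 72 h, against 7.76 at 0 µM, with an interval of the difference from -0.075 to 0.385. Slc6a20b measured 5.33, 5.32, 3.87 and 4.11 at 1 µM at 24 h, against 3.84, 3.77 and 4.02 at 0 µM. Only the 1 µM arrays of Rs627 and Rs628 exceeded 5, and the groups overlapped. Slc6a20b passed the filter through these 2 arrays and the 10 µM array of Rs628 at 24 h (5.56) alone, so it could enter the test only through treated arrays. Its calls as higher, at 24 h and over all times at 1 µM, are in the counts of higher members and are given as a description. That over all times (0.26) was lost in 7 of 15 alternative settings, among them those without Rs627, Rs628 or Rs632. At 72 h no array of either group exceeded 5. Slc6a17, known from neurons, had a difference of 0.18 at 72 h, with all 8 arrays under 5.

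**Figure D3:**
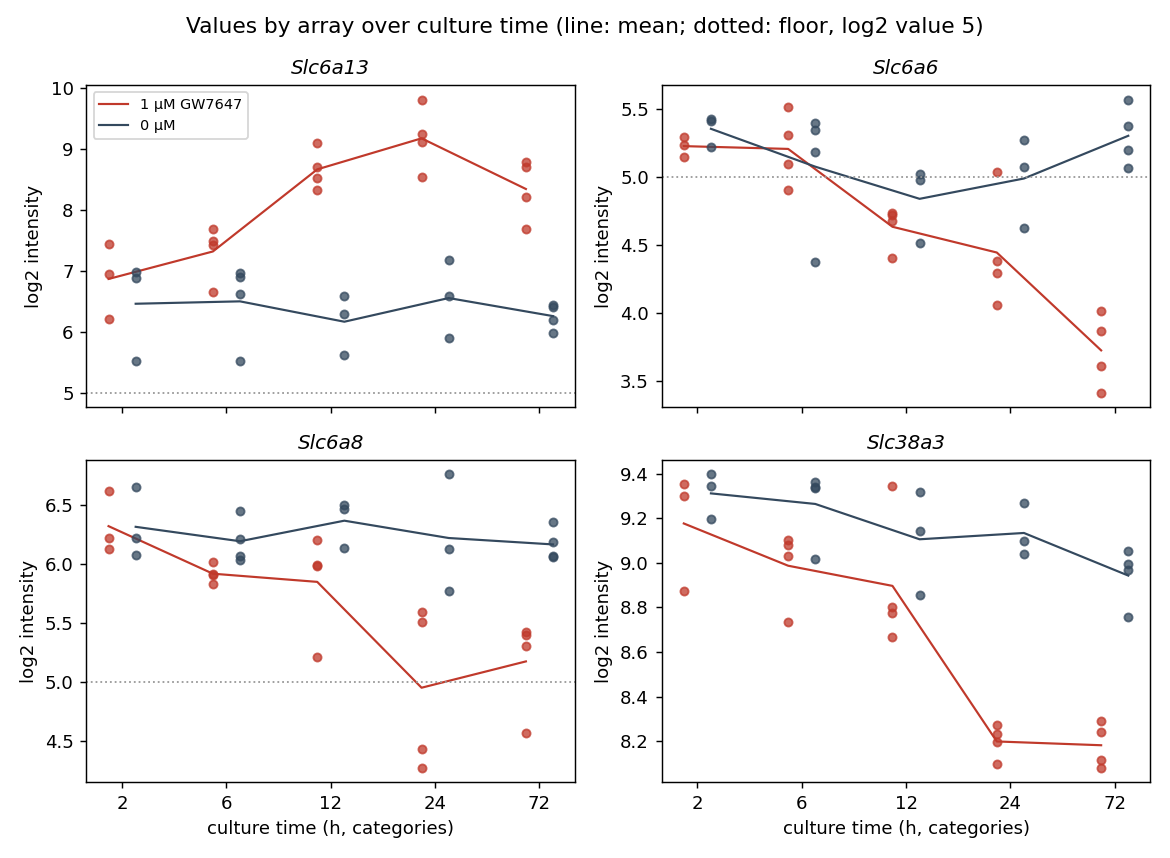
Log2 intensity of Slc6a13, Slc6a6, Slc6a8 and Slc38a3 in each array over culture time at 1 µM (red) and 0 µM (dark), with lines through the group means. The 1 µM arrays lie above all 0 µM arrays for Slc6a13 from 12 h on, and below them for Slc6a6 at 72 h and for Slc6a8 and Slc38a3 at 24 and 72 h.

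In the Slc38 family 4 of 6 genes were lower at 72 h with 1 µM, where 15.5% of all genes were. The calls of Slc38a4, Slc38a6 and Slc38a10 were each lost when 1 rat or another was left out, and that of Slc38a3 was kept. Slc38a3 measured 8.11, 8.08, 8.29 and 8.24 at 1 µM, against 8.97, 8.76, 9.05 and 8.99 at 0 µM. The groups were apart by more than the range of either one, and the difference was -0.76 ± 0.14 (1.69-fold lower, adjusted p 1.6e-05 by limma). At 24 h the 4 arrays at 1 µM measured 8.23, 8.10, 8.195 and 8.27, against 9.10, 9.27 and 9.04 at 0 µM, a difference of -0.94 ± 0.15 (1.91-fold lower, adjusted p 2.18e-06 by limma). Over concentrations at 72 h its means were 8.94, 8.97, 8.90, 8.76, 8.18 and 7.96 at 0, 0.001, 0.01, 0.1, 1 and 10 µM, and the largest step between neighbouring means lay between 0.1 and 1 µM. Slc38a3 was called lower in each of the 15 alternative settings at 24 h, at 72 h and over all times at 1 µM.

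Slc38a4, the system A carrier most typical of liver, measured 11.63, 11.67, 11.87 and 11.61 at 1 µM at 72 h, against 11.98, 11.97, 12.14 and 12.12 at 0 µM. All 1 µM arrays were lower, by 0.36 ± 0.11 (1.28-fold, adjusted p 0.00964 by limma). Without Rs627 it was -0.36 (adjusted p 0.0574) and without Rs632 -0.31 (adjusted p 0.16). At 24 h it was lower by 0.37 with overlapping groups (adjusted p 0.0135 by limma; 0.192 without Rs632). At 10 µM the difference was -0.26 (adjusted p 0.0924, and 6.72e-05 with rat as a term). Its neighbour on chromosome 7, Slc38a2, averaged 10.00 at 1 µM, against 9.94 at 0 µM, with an interval of the difference from -0.192 to 0.307.

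Slc38a10 measured 8.91, 9.06, 8.81 and 8.92 at 1 µM at 72 h, against 9.15, 9.23, 9.33 and 9.35 at 0 µM. The groups did not overlap, and the difference was -0.34 ± 0.089 (1.26-fold lower, adjusted p 0.00227 by limma), or -0.31 without Rs632 (adjusted p 0.0569). At 24 h its groups overlapped, and the difference of -0.28 (adjusted p 0.0225 by limma) did not pass without Rs631 (0.118) or Rs632 (0.369), nor without the arrays of low signal (0.274). Slc38a6, a brain and liver relative whose substrate is less settled, measured 5.16, 5.09, 5.02 and 5.45 at 1 µM, against 5.85, 6.10, 5.54 and 5.87 at 0 µM. Its arrays did not overlap either, with a difference of -0.66 ± 0.21 (1.58-fold lower, adjusted p 0.0145 by limma) that was -0.54 without Rs628 (adjusted p 0.12). At 24 h the difference of -0.76 (adjusted p 0.00921 by limma) did not pass without Rs631 (0.0603), without Rs632 (0.336) or without the arrays of low signal (0.154). At 10 µM the Slc38a6 difference was -0.57 and passed only with rat as a term (adjusted p 0.0173; 0.0539 without it). Slc38a7, the lysosomal glutamine exporter, had a difference of -0.33 with overlapping groups (interval -0.861 to 0.207).

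**Figure D4:**
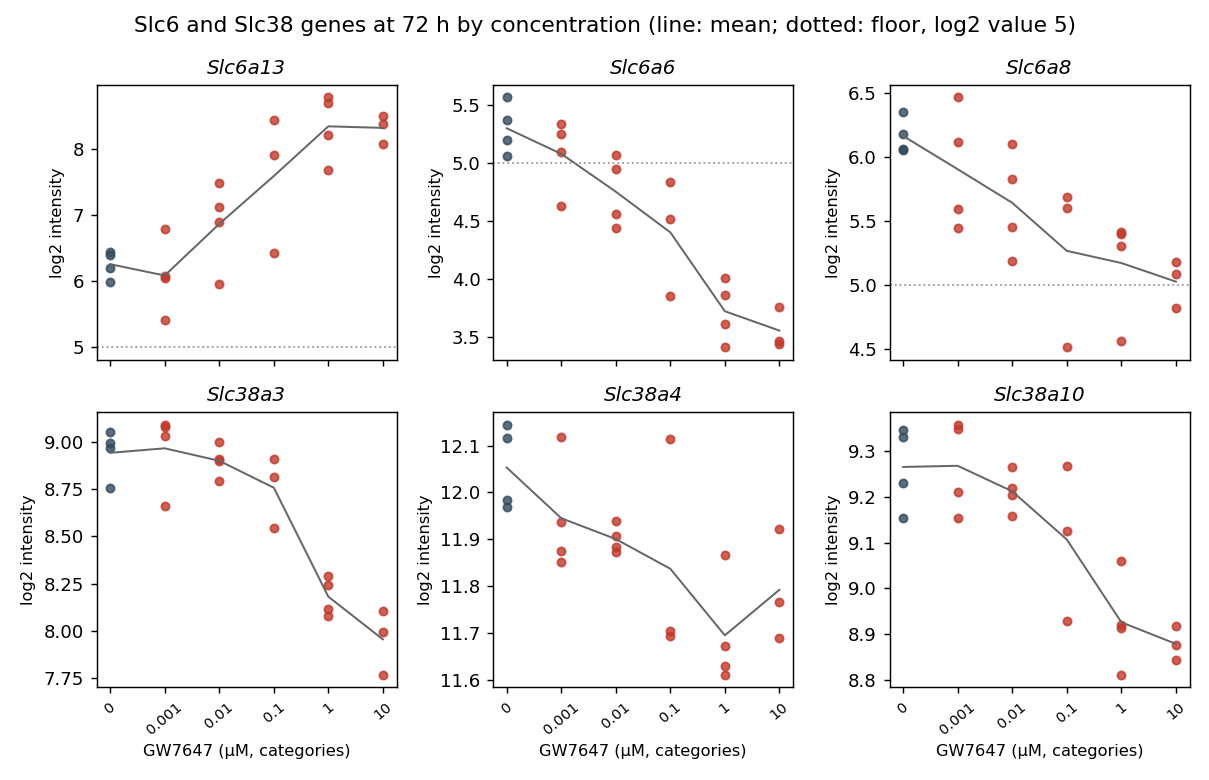
Log2 intensity of 3 Slc6 and 3 Slc38 genes in each array at 72 h by concentration of GW7647 (0 µM dark, others red), with a line through the means. Slc6a13 climbs to a mean of 8.34 at 1 µM, and the other 5 genes lie lower at 1 and 10 µM than at 0 µM.

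Of the Slc3 heavy chains and the light chains they carry, 1 was called higher at 72 h with 1 µM and 1 lower. Of all genes, 11.3% and 15.5% were. The heavy chain Slc3a2 measured 10.82, 10.82, 11.21 and 10.92 at 1 µM at 72 h, against 10.02, 10.41, 10.61 and 10.47 at 0 µM. All 1 µM arrays were higher, by 0.56 ± 0.16 (1.48-fold, adjusted p 0.00495 by limma), in 4 of 4 rats. At 10 µM the 3 arrays measured 10.91, 11.18 and 10.95, higher by 0.64 ± 0.17 (1.55-fold, adjusted p 0.00293 by limma). At 24 h Slc3a2 measured 10.46, 10.57, 10.99 and 10.53 at 1 µM, against 10.38, 10.70 and 10.51 at 0 µM, and the groups overlapped. The change at 72 h was not tested against that at 24 h. Slc3a2 was called higher at 72 h in each of the 15 alternative settings, at 1 and at 10 µM.

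Slc7a6, a light chain that exchanges cationic for neutral amino acids, measured 3.67, 4.30, 3.68 and 4.28 at 1 µM at 72 h, against 5.04, 6.02, 4.46 and 5.03 at 0 µM. No 1 µM array exceeded 5 and 3 of 4 at 0 µM did. The difference was -1.16 ± 0.38 (at least 1.21-fold lower, adjusted p 0.0154 by limma), -1.08 without Rs627 (adjusted p 0.132) and -1.29 without Rs632 (adjusted p 0.0623). Its rats differed by up to 1.03 on average, the widest of the 24 members. The adjoining gene Slc7a6os averaged 6.57 at 1 µM at 72 h, against 6.53 at 0 µM, and was lower at 24 h only, by 0.86 ± 0.29 (adjusted p 0.019 by limma; 0.303 without the arrays of low signal, 0.122 without Rs631 and 0.301 without Rs632).

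Slc7a5, the light chain that imports leucine and other large neutral amino acids, measured 4.66, 4.49, 4.35 and 3.77 at 1 µM at 24 h, against 5.27, 5.68 and 5.27 at 0 µM. All 1 µM arrays were under 5, and the difference was -1.09 ± 0.34 (at least 1.33-fold lower, adjusted p 0.0116 by limma). It did not pass without the arrays of low signal (-0.83, adjusted p 0.149), without Rs631 (-0.96, adjusted p 0.126) or without Rs632 (-0.97, adjusted p 0.0896). At 72 h Slc7a5 was 4.81, 5.00, 5.22 and 4.42 at 1 µM, against 5.11, 5.61, 5.81 and 5.32 at 0 µM, overlapping and not past the threshold (adjusted p 0.153).

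Slc7a11, the light chain of the cystine and glutamate exchanger, measured 7.20, 6.49, 5.97 and 6.40 at 1 µM at 24 h, against 8.18, 7.40 and 8.05 at 0 µM. The groups did not overlap, with a difference of -1.36 ± 0.39 (2.57-fold lower, adjusted p 0.00606 by limma), or -1.03 without the arrays of low signal (adjusted p 0.0944) and -1.24 without Rs632 (adjusted p 0.085). Its difference over all times at 1 µM (-0.54, adjusted p 0.00924) did not pass without Rs632 (0.181) or the doubtful pair of 12 h arrays (0.0857). At 72 h it was 7.17, 7.08, 6.65 and 6.64 at 1 µM, against 7.62, 7.26, 7.39 and 8.03 at 0 µM, also without overlap, and the difference of -0.69 did not pass (adjusted p 0.155). Slc7a7 averaged 4.66 ± 0.18 at 1 µM at 72 h, against 4.67 ± 0.34 at 0 µM (SD, n = 4 each). Slc3a1, the other heavy chain, did not exceed 5 in any array of these 2 groups.

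Slc7a1, the arginine and lysine carrier that needs no heavy chain, measured 7.48, 7.79, 7.07 and 6.41 at 1 µM at 24 h, against 8.21, 8.24 and 8.18 at 0 µM. The difference was -1.02 ± 0.34 (2.03-fold lower, adjusted p 0.0192 by limma), but -0.57 without the arrays of low signal (adjusted p 0.365), -0.97 without Rs631 (adjusted p 0.174) and -0.78 without Rs632 (adjusted p 0.211). At 72 h it measured 7.72, 8.11, 7.76 and 7.33 at 1 µM, against 8.19, 8.86, 8.33 and 8.23 at 0 µM. These groups did not overlap, and the difference of -0.67 passed with rat as a term (adjusted p 0.0177) and not without it (0.109). A second Slc7a1 probe set, above 5 in all arrays, fell by 0.78 at 72 h.

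**Figure D5:**
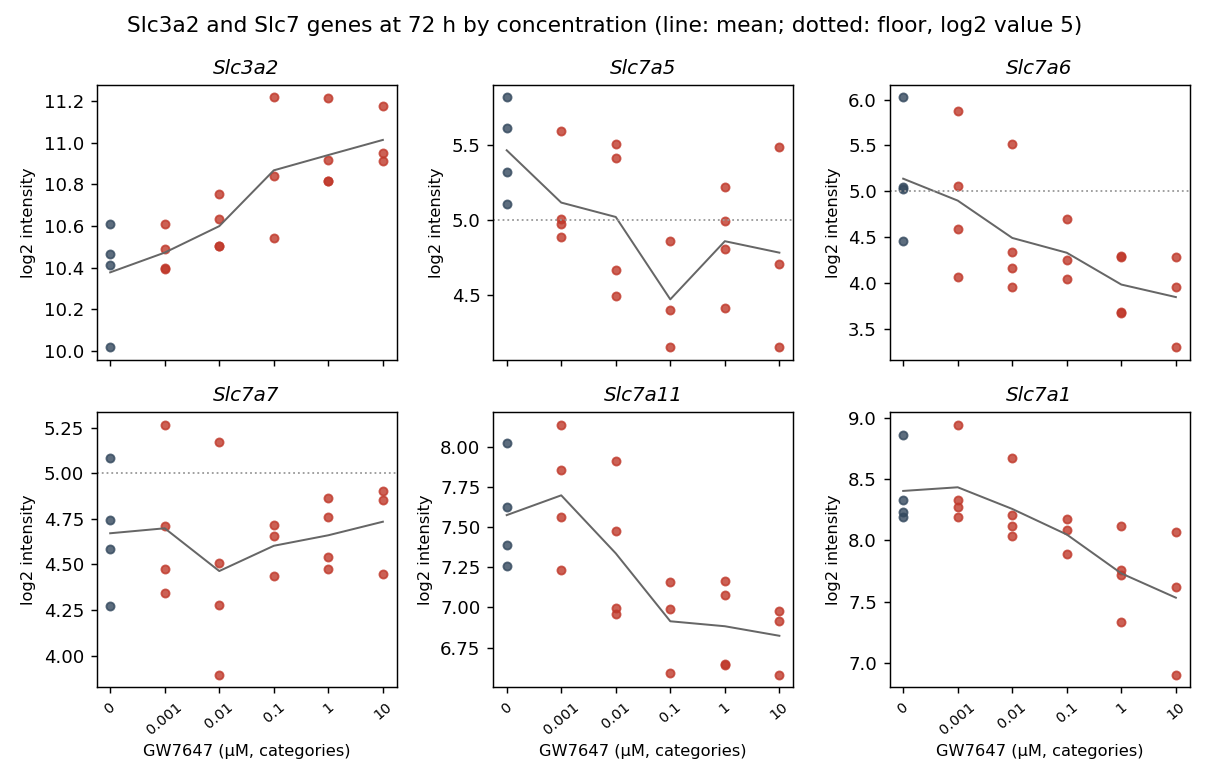
Log2 intensity of Slc3a2 and 5 Slc7 genes in each array at 72 h by concentration of GW7647 (0 µM dark, others red), with a line through the means. Slc3a2 lies higher at 1 and 10 µM than at 0 µM, Slc7a6 lies lower and under the floor of 5, and Slc7a7 stays within its spread.

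Both Slc43 genes, which let branched-chain and aromatic amino acids cross by facilitated diffusion, were lower over all times with 1 and 10 µM. Of all genes, 23.6% and 27.7% were lower in these comparisons. Slc43a2 measured 4.44, 4.39, 3.98 and 4.16 at 1 µM at 72 h, against 5.12, 5.74, 4.67 and 5.08 at 0 µM. All 1 µM arrays were under 5 and 3 of 4 at 0 µM above it, with a difference of -0.90 ± 0.24 (at least 1.18-fold lower, adjusted p 0.003 by limma). Slc43a1 measured 5.46, 4.76, 5.33 and 5.35 at 1 µM at 72 h, against 5.53, 5.47, 6.16 and 5.41 at 0 µM, and the groups overlapped. Its difference over all times at 1 µM was -0.34 ± 0.14 (adjusted p 0.0472 by limma), a call that 9 of 15 alternative settings lost, among them those without Rs628 (adjusted p 0.101), Rs631 (0.161) or Rs632 (0.148).

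In the Slc1 family no gene passed in any comparison without a rat term. Slc1a4, a carrier of alanine, serine and cysteine, averaged 7.54 at 1 µM at 72 h, against 8.003 at 0 µM, with an interval from -1.004 to 0.077. Slc1a3, a glutamate carrier better known from glia, averaged 5.18 at 1 µM, against 5.71 at 0 µM, with an interval from -1.354 to 0.295. Averaged over the times with rat as a term, Slc1a3 at 1 µM was lower (adjusted p 0.00111 by limma; 0.0737 without it), as was Slc1a4 (adjusted p 0.0263; 0.181 without it). The mean deviations of its rats from the group means spanned 1.03 for Slc1a3.

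At 10 µM and 72 h the comparison used the same 0 µM arrays as that at 1 µM. Of the 24 members 2 were higher and 7 lower, against 28% of all genes, 12.5% higher and 15.6% lower, and with rat as a term 14 were called, against 41.1% of all genes. The added ones were Slc38a4, Slc38a6, Slc43a1 and Slc7a5 (lower) and Slc3a1 (higher). Slc3a2 and Slc6a13 were again the higher ones, and 6 of the 7 lower genes were also among the 8 lower at 1 µM. The groups did not overlap for 15 members, 4 higher and 11 lower, against 36.9% of all tested genes. The seventh was Slc7a1, with 8.07, 7.62 and 6.91 at 10 µM, against 8.19, 8.86, 8.33 and 8.23 at 0 µM (difference -0.87 ± 0.34, adjusted p 0.0472 by limma). This call was lost without Rs627 (adjusted p 0.0675), Rs631 (0.169) or Rs632 (0.31). Slc38a10 (adjusted p 0.0507), Slc43a2 (0.112) and Slc7a6 (0.0811) did not pass at 10 µM without Rs632, nor did Slc43a2 without Rs627 (0.0558) or Rs631 (0.0617).

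Other measures moved with these groups. At 72 h the summed macrophage marker level was 7.88 (7.44 to 8.70) at 1 µM, against 9.35 (8.68 to 9.65) at 0 µM, on the log2 scale. Most of that sum is Lyz2, which was lower by 2.13, while 7 of the 9 macrophage markers were never above 5. Of 6 stellate cell markers tested, Acta2 and Col1a2 were lower, by 0.55 and 0.75, and the summed stellate level was 8.12 at 1 µM, against 8.13 at 0 µM. The summed hepatocyte level was 15.41 at 1 µM, against 15.64 at 0 µM, and the 3′ minus 5′ difference of β-actin was 1.97 at 1 µM, against 1.66 at 0 µM. The summed bile duct level was 10.04 (9.69 to 10.35) at 1 µM, against 10.55 (9.86 to 11.31) at 0 µM, with Epcam the one bile duct marker above 5 in all arrays. At 24 h the macrophage sum was 8.47 (7.98 to 8.80) at 1 µM, against 9.59 (9.48 to 9.71) at 0 µM, and the hepatocyte sum 15.60 (15.55 to 15.68) at 1 µM, against 15.74 (15.71 to 15.79) at 0 µM, both without overlap. In bulk RNA fewer cells of a type and less RNA per cell cannot be told apart, and the part of these measures in the transporter changes was not tested.

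Genes of amino acid use around the transporters give the setting. Of 36 tested genes of amino acid breakdown and the urea cycle, 16 were higher and 5 lower at 1 µM at 72 h, where 11.3% of all genes were higher and 15.5% lower, and their median was 0.291, against -0.061 over all genes. By p the first were Ass1, which makes argininosuccinate in the urea cycle (-1.66, adjusted p 3.02e-10), Cbs, which starts the conversion of homocysteine to cysteine (1.44, adjusted p 5.56e-10), Bckdha, a subunit of the branched-chain keto acid dehydrogenase (0.98, adjusted p 4.46e-09), and Prodh, which opens proline breakdown (-1.13, adjusted p 2.54e-08, all by limma). Csad and Cdo1, which make taurine from cysteine, were higher by 1.17 and 0.67 (adjusted p 0.000108 and 0.0314 by limma); this pair was picked after its values were seen, beside the opposite changes of the taurine carriers Slc6a13 and Slc6a6.

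ATF4 is the transcription factor that answers amino acid shortage. Of 20 tested genes, its targets and Atf4 itself, 6 were higher and 0 lower at 72 h with 1 µM. With rat as a term 10 were higher and 3 lower. In this comparison, also for the lists below, 11.3% of all genes were higher and 15.5% lower. With rat as a term these shares were 16.3% and 24%. Averaged over the 5 times at 1 µM, 5 of these 20 genes were higher and 4 lower, against 11.7% and 23.6% of all genes. At 72 h the higher targets were led by Shmt2 (0.80), Vldlr (1.89), Cebpb (0.95) and Cebpg (0.37). Atf4 itself differed by 0.00 ± 0.10. Of 11 tRNA synthetases, enzymes that charge transfer RNA with amino acids, 2 were higher and 3 lower. Of 19 genes of amino acid sensing at the lysosome 2 were higher and 5 lower, among them Rragc at -0.56 and Lamtor4 at 0.45. Of 10 amino acid carriers outside the symbol rule 3 were higher and 1 lower: the mitochondrial carriers Slc25a13 (0.92, aspartate and glutamate), Slc25a22 (0.53, glutamate) and Slc25a44 (0.52, branched-chain amino acids), and Mfsd12 (-0.96), which brings cysteine into lysosomes.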

How the data were processed

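Total RNA was amplified and biotin-labelled with a 3′ expression kit and hybridised to Affymetrix arrays, 1 per sample, per the labels' protocols. The authors deposited a log2 intensity for each probe set. The submitters' processing notes name the tools Partek and GCRMA and give neither versions nor the order of use. The deposited log2 values were used as deposited, since array medians ran from 4.13 to 4.46. Of 31139 probe sets, 19069 had 1 gene symbol, 572 several and 11498 none. Where a gene had several probe sets, the one with the highest mean over all arrays stood for it. A log2 value of 5 was taken as the floor, and folds with arrays under it are bounds with those values set to 5. Arrays have no read depth, and their number limits the precision.

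One limma model (3.58.1, R 4.3.3) with 30 group means was fitted to all 100 arrays (70 residual degrees of freedom), with p-values adjusted by Benjamini and Hochberg over 8843 genes. It was first run on simulated data whose arrays were independent, without differences between rats. That run cannot show how the model behaves with arrays paired by rat. Rat, which the labels give, pairs the arrays: deviations from group means correlated at a median of 0.62 within rats and -0.229 between rats, and 95 of 100 arrays had their highest correlation with another array of that rat. Members whose call changes with rat as a term (the replicate block) are named. The model without a rat term takes the arrays as independent, so the spread behind its p-values mixes differences between the 4 rats and between cultures. Groups also differ in their rats. At 2 h the 0 µM group lacks Rs628 and the 1 µM group lacks Rs627, and at 24 h the 0 µM group lacks Rs628.

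Members, gene lists and comparisons were chosen with earlier results of these data known. All members past the filter could be named. Values per array are given for members past the threshold at 1 µM, at 72 h or over all times. Slc38a2 and Slc7a5 were added to these after their values were seen. Up to 4 genes of a list are named by p. Slc7a12 was left out because its probe set repeats the symbol. Alternatives covered the rat term, the arrays fitted, the filter, normalization, variance model, probe set choice and arrays left out. Figures were drawn with matplotlib 3.10.9 (Python 3.11.15).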

Additional observations from a re-analysis of the deposited data

Results flagged for a closer look

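Groups of 4 arrays were examined at 0 and 1 µM only, and chance flags about 1 in 20. In 11 of 144 tested groups of members (7.64%) 1 array stood apart from the other 3 by Dixon's criterion. Treated arrays among them were Slc43a2 at 4.26 in Rs632 at 6 h and 1 µM (others 4.80 to 4.85), Slc6a6 at 4.40 in Rs631 at 12 h and 1 µM (others 4.68 to 4.73), and Slc6a8 at 4.57 in Rs631 at 72 h and 1 µM (others 5.31 to 5.42). Slc7a11 was 8.07 in Rs628 at 6 h and 1 µM (others 7.68 to 7.73). Slc7a6os was 5.22 in Rs632 at 12 h and 1 µM (others 6.59 to 6.83), 6.94 in Rs632 at 72 h and 1 µM (others 6.41 to 6.49) and 6.37 in Rs627 at 72 h and 0 µM (others 6.57 to 6.59).

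At 0 µM the others were Slc38a3 at 9.02 in Rs628 at 6 h (others 9.34 to 9.36), Slc43a1 at 6.16 in Rs631 at 72 h (others 5.41 to 5.53), Slc6a17 at 3.68 in Rs628 at 72 h (others 4.06 to 4.12) and Slc7a7 at 3.41 in Rs631 at 6 h (others 3.77 to 3.79). The effect of 1 µM on Slc6a6 differed between 72 h and 2 h by -1.45 on the log2 scale, by the test of the difference itself in limma's model (adjusted p 0.00326). None of these arrays was removed for the reported values.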

How the results depend on the processing

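Each count of called members and each named change was recomputed under up to 15 alternatives. Of 60 called member changes 23 were kept in all of them and 0 reversed. With the replicate block the count of called members became 1 at 6 h and 1 at 72 h of culture (0 without it), 1 at 0.01 µM, 8 at 0.1 µM, 2 for 1 µM at 6 h, 14 for 10 µM at 72 h and 7 for the change at 72 h minus that at 2 h; the other counts stayed within 1.5 times. The share of all genes called rose with the block as well, to 4.4% at 6 h and 13% at 72 h of culture, 1.88% at 0.01 µM, 28.4% at 0.1 µM, 4.7% for 1 µM at 6 h, 41.1% for 10 µM at 72 h and 17.9% for the difference between times. A fit on only the arrays compared called 1 member at 12 h of culture, against 0. For the change at 72 h minus that at 2 h, 1 member as reported, quantile normalization, the mean of a gene's probe sets and leaving out arrays whose label ends in 2 each gave 2, and leaving out arrays of low signal or at repeated plate positions gave 4. At 24 h and 1 µM the count of 11 became 4 without arrays of low signal and 5 without those at repeated positions. Without repeated positions the count over all times at 10 µM was 7, against 12. Leaving out 1 rat at a time gave 2 to 5 members at 0.1 µM, 4 to 13 at 1 µM and 6 to 12 at 10 µM over all times, 1 to 3 for 1 µM at 12 h, 3 to 14 at 24 h, 7 to 10 at 72 h, 5 to 9 for 10 µM at 72 h and 0 to 2 for the difference between times. The lowest counts at 1 µM (4 over all times, 3 at 24 h and 7 at 72 h) and at 10 µM and 72 h (5) were without Rs632, the lowest at 0.1 µM (2) without Rs627 or Rs631, and the 3 at 12 h without Rs628. The cause was not tested, though fewer arrays enter each such fit. Members near the floor of 5 have only bounds on their fold.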
